A study of Mus musculus with 4 samples.

Results

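Lymphatic endothelial cells of the mouse lung were described from droplet single-cell RNA sequencing of whole lungs. The members were chosen by their own RNA, as the cells with at least 1 UMI (1 counted RNA molecule) in at least 2 of 5 genes (Mmrn1, Prox1, Ccl21a, Reln and Nts) and at least 1 UMI in Cdh5, Pecam1 or Flt4, which marks endothelium. They also held 0 UMIs of Cd3e, Cd79a, Ptprc and Pdgfra, genes of T cells, B cells, leukocytes and fibroblasts. The rule found 129 cells among 53463 kept cells, those that held 300 genes or more and no more than 20% mitochondrial UMIs. The lungs came from mice whose Galt gene had been edited (GAL, 2 libraries) and from wild-type mice (WT, 2 libraries), and Galt encodes galactose-1-phosphate uridylyltransferase of the Leloir pathway, which turns galactose into glucose phosphates. Strain, age, sex, the kind of edit and the number of animals per library are not in the labels, and no treatment is named. Libraries are numbered in accession order, and the numbers pair nothing. Since separate animals are not named, p-values reflect only how far these samples differ, which may be technical.

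Lymphatic endothelium lines the blind-ended vessels that take up tissue fluid, proteins and immune cells and carry them toward the lymph nodes. The homeobox factor Prox1 sets and keeps lymphatic identity, VEGF-C acts through the receptor VEGFR3 (Flt4) to drive lymphatic growth, and the chemokine Ccl21a draws dendritic cells and T cells that bear Ccr7 into the vessels. In the lung these vessels run beside airways, arteries and veins, and they keep the air spaces free of excess fluid.

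Depth was alike in total but not per cell. Total UMIs per library ranged from 56218178 to 62406681, and median UMIs per kept cell were 3782.5 and 2911 in GAL against 2536 and 2472.5 in WT. GAL replicate 1 stood apart in its cell mix, with 17.8% of its kept cells in the endothelial gate (a UMI of Cdh5, Pecam1 or Flt4 and none of the 4 excluded genes) against 9.50% to 10.7% in the others. Alveolar type 2 markers summed to 8783 CPM (UMIs scaled to a library sum of 1000000) in that whole library and to 367 to 1686 CPM in the others. Pairs of libraries shared 104 to 146 cell barcodes, at most 1.15% of the smaller library, and 0 members shared a barcode.

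The GAL libraries held 61 (replicate 1) and 15 (replicate 2) lymphatic cells, and the WT libraries 22 (replicate 1) and 31 (replicate 2). As a share of kept cells this was 0.502% (95% exact binomial interval 0.384% to 0.645%), 0.126% (0.0706% to 0.208%), 0.157% (0.0984% to 0.238%) and 0.201% (0.137% to 0.285%). GAL replicate 1 lay above the other 3 libraries, and GAL replicate 2 lay lowest, so the groups overlapped. WT replicate 1 held 6 of the 11 members scored as doublets, and it lay lowest with scored doublets removed (0.129%, against 0.139% in GAL replicate 2) and with cells thinned to 1000 UMIs (0.1175% against 0.163%). The mean was 0.314% ± 0.266 (SD, n = 2) in GAL and 0.179% ± 0.0312 in WT, with p = 1 by a two-sided exact permutation test, which cannot go below 0.333 with 2 libraries against 2. Among endothelial-gated cells, the shares were 2.83%, 1.27%, 1.65% and 1.88%, a mean of 2.05% ± 1.10 against 1.77% ± 0.159 (exact permutation p = 1). Without GAL replicate 1 the difference turned, to −0.0529 percentage points of kept cells and −0.498 of endothelial-gated cells. The shares are of cells freed by digestion, and the intervals cover counting error only.

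**Figure D1:**
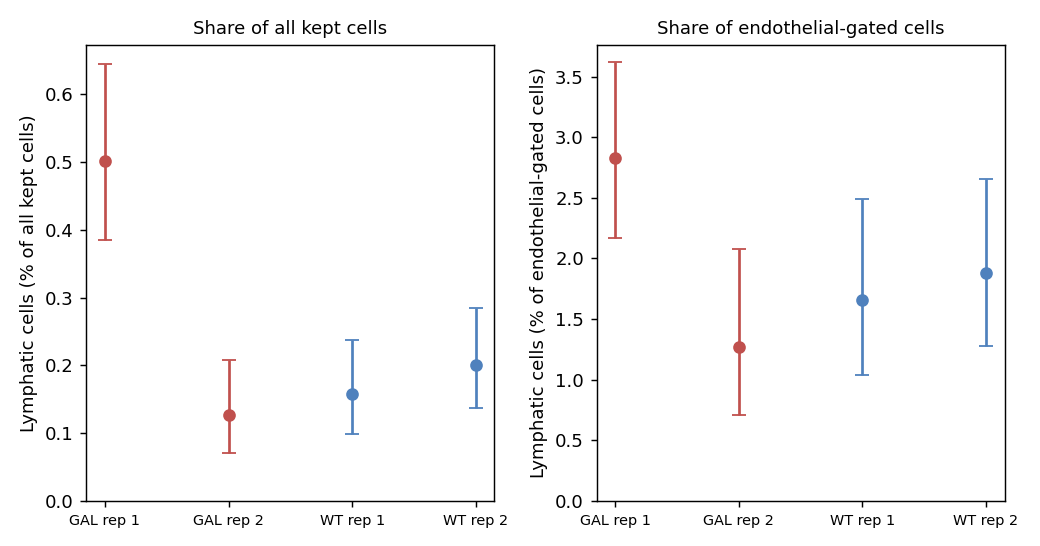
Lymphatic endothelial cells as a percentage of all kept cells (left) and of endothelial-gated cells (right), 1 point per library with its 95% exact binomial interval. GAL replicate 1 is highest in both panels (0.502% and 2.83%) and GAL replicate 2 lowest (0.126% and 1.27%).

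The rule genes describe how firmly the cells were marked, and since they chose the members their levels carry no test. Ccl21a was found in 127 of the 129 cells, Mmrn1 (multimerin, an extracellular matrix glycoprotein) in 121, Flt4 in 117, Reln (reelin, a secreted glycoprotein) in 103, Prox1 in 91 and Nts (the neuropeptide neurotensin) in 46. Of the members, 16 held 2 of the 5 genes, 23 held 3, 63 held 4 and 27 held all 5. Just outside the rule lay 139 endothelial-gated cells with 1 of the 5 genes, 93 of them in GAL replicate 1. Their Ccl21a level was 95.4 to 170 CPM per library, against 19857 to 29627 CPM in the members as a group. Some members lay near that edge, with 1 UMI of Ccl21a and 1 UMI of 1 other lymphatic rule gene. In GAL these were cells of 2725, 4434 and 5006 UMIs in replicate 1 and of 2634 UMIs in replicate 2. In WT it was a cell of 1034 UMIs in replicate 2. In B cells, which should lack Ccl21a, 0.531% to 2.29% of cells held a UMI of it, with median depths of 1656.5 to 2370 UMIs per cell. Median depths of the members were 4684, 3910, 2521 and 3137 UMIs, first both GAL libraries by number and then both WT libraries, the order of all lists of 4 values below.

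Of the 5 lymphatic rule genes Ccl21a had the highest level in each library. It lay at 29627, 28187, 19857 and 26699 CPM. The members held 67.2%, 47.4%, 61.9% and 56.0% of all Ccl21a UMIs of their libraries while being under 1% of the cells. The gene occupies bases 42772860 to 42773993 of chromosome 4 (GRCm38, minus strand), among near-identical copies, of which Ccl21c had 14 UMIs in the members against 18486 for Ccl21a, so the split between copies is uncertain. Mmrn1 lay at 2388, 3444, 2123 and 1917 CPM, Flt4 at 644, 743, 847 and 764 CPM, and Prox1 at 511, 578, 510 and 397 CPM.

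Nts was the uneven one among them. Its level was 746, 271, 777 and 1839 CPM, highest in WT replicate 2. The 10 cells richest in Nts held 69.3% of its 602 UMIs, where the 10 richest cells held 26.5% to 29.3% of the UMIs of each of the other 4 lymphatic rule genes. With every cell thinned to 1000 UMIs, Nts was found in 13.8% of 58 cells, 13.3% of 15, 14.3% of 21 and 45.2% of 31 (unthinned, 32.8%, 33.3%, 13.6% and 58.1%). Cells with Nts had a lower Ccl21a level than cells without it in each library, at 19200 against 36488 CPM, 25894 against 29891, 10651 against 25244, and 22706 against 32701. Prox1 was lower in the Nts cells of each library too, at 382 against 596 CPM, 526 against 617, 346 against 607, and 324 against 507. Lyve1, a hyaluronan receptor, went the other way in 3 libraries, at 2276 against 879 CPM, 2075 against 1377 and 3101 against 1267, and was alike in WT replicate 1 (754 in both). The rule asks 1 more lymphatic rule gene of a cell with Nts and 2 of a cell without it, which can favour lower Ccl21a and Prox1 in Nts cells. Median depths with and without Nts were 6610 and 4455 UMIs, 3910 and 4130.5, 10648 and 2452, and 3199.5 and 3126. These splits follow a rule gene, rest on as few as 3 cells (WT replicate 1) and are given without a test.

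Genes outside the rule were compared between the members and the other endothelial cells, the 6055 gated cells with 0 of the 5 genes. Of 11003 genes tested by edgeR's quasi-likelihood test with the library as a block, 2379 (21.6%) were called at an adjusted p under 0.05, 894 higher in lymphatic cells (8.13%) and 1485 lower (13.5%), with a median log2 fold change of −0.17. DESeq2 called 1630, 763 higher and 867 lower. The 12 rule genes took no part in the test. The p-values rest on a spread pooled across genes, and the members were deeper than the other endothelial cells, whose median depths were 2983, 2691, 1968 and 2324 UMIs.

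The 4 genes with the largest rise among those called, changed alike in each library and at 100 CPM or more, were Gm525 (a predicted gene), Klhl4 (a kelch-like protein), Sh3gl3 (endophilin A3, of membrane bending) and Ptx3 (pentraxin 3, a secreted pattern receptor). Their RefSeq promoters (GRCm38.p6, plus strand, 250 bases before the start to 50 after it) are shown because these genes were close to absent from other endothelium, and capitals mark matches, on either strand, to 3 short motifs. They are of families of which Maf, Nr2f2 and Tbx1 rose in lymphatic cells, while the T-box genes Tbx2 and Tbx3 fell. The promoters lie at chr11:89073591-89073890, chrX:114474083-114474382, chr7:82174546-82174845 and chr3:66219637-66219936.
Gm525: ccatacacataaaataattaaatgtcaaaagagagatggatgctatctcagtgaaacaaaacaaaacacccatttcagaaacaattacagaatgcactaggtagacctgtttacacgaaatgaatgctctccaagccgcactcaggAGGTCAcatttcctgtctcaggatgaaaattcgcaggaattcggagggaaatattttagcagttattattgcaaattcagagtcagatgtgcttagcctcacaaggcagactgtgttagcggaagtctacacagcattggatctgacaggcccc
Klhl4: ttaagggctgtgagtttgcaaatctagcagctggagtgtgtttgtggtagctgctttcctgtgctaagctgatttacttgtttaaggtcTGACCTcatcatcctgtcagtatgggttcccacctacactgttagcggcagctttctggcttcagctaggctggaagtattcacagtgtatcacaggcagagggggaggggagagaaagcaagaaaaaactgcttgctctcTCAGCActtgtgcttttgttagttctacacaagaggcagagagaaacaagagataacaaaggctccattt
Sh3gl3: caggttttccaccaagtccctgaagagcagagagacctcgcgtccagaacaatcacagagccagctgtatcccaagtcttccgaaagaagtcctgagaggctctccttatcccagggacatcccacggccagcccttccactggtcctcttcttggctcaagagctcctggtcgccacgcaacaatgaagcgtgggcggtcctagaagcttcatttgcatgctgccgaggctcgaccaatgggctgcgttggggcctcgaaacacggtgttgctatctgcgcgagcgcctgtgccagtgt
Ptx3: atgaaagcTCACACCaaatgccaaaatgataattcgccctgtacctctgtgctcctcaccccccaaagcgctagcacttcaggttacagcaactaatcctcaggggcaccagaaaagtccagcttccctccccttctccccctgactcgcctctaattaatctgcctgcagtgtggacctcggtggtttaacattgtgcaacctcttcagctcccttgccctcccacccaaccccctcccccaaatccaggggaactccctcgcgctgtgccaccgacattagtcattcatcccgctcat
The motifs searched were the MAF half-site TGCTGA, the nuclear receptor half-site AGGTCA, which Nr2f2 can bind, and the T-box core GGTGTGA. They do not overlap each other. Over the 14 promoters of the 12 genes with the largest rise, the MAF half-site was in 1 (7.14%, in Klhl4), the nuclear receptor half-site in 3 (21.4%, in Gm525, Klhl4 and Slc45a3) and the T-box core in 1 (7.14%, in Ptx3). Of 32851 mouse promoters of this length, 19.5%, 16.3% and 3.98% held them. A match is a description of letters and not of binding.

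Gm525 lay at 105, 283, 69.6 and 70.1 CPM in lymphatic cells and at 0 to 0.467 CPM in other endothelial cells (log2 fold change 8.75 ± 0.53 SE, adjusted p = 1.8e-59). Klhl4 lay at 151, 82.6, 104 and 101 CPM against at most 0.563, and Sh3gl3 at 114, 70.8, 128 and 101 CPM against at most 0.844. Ptx3 lay at 111, 118, 104 and 140 CPM against 1.14 in GAL replicate 1 and 0 in the other 3 libraries. The lowest lymphatic value of each of these genes was far above the highest value in other endothelium, which their choice by the largest rise favours. The next were Pcsk6 (a proprotein convertase, 7.87), Btnl9 (a butyrophilin-like protein, 7.63), Slc45a3 (a solute carrier, 7.54) and Sema3d (a guidance semaphorin, 7.43). Tbx1, a T-box factor needed for lymphatic growth, rose by 7.34 ± 0.39, from at most 1.97 CPM to 130, 307, 104 and 156 CPM. Rgs16, a brake on G-protein signalling, lay at 357, 649, 336 and 553 CPM against 1.87 to 3.69 (7.32 ± 0.24). Dtx1, a regulator of Notch (7.18), and Wipf3, of the actin skeleton (6.97), completed the 12.

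**Figure D2:**
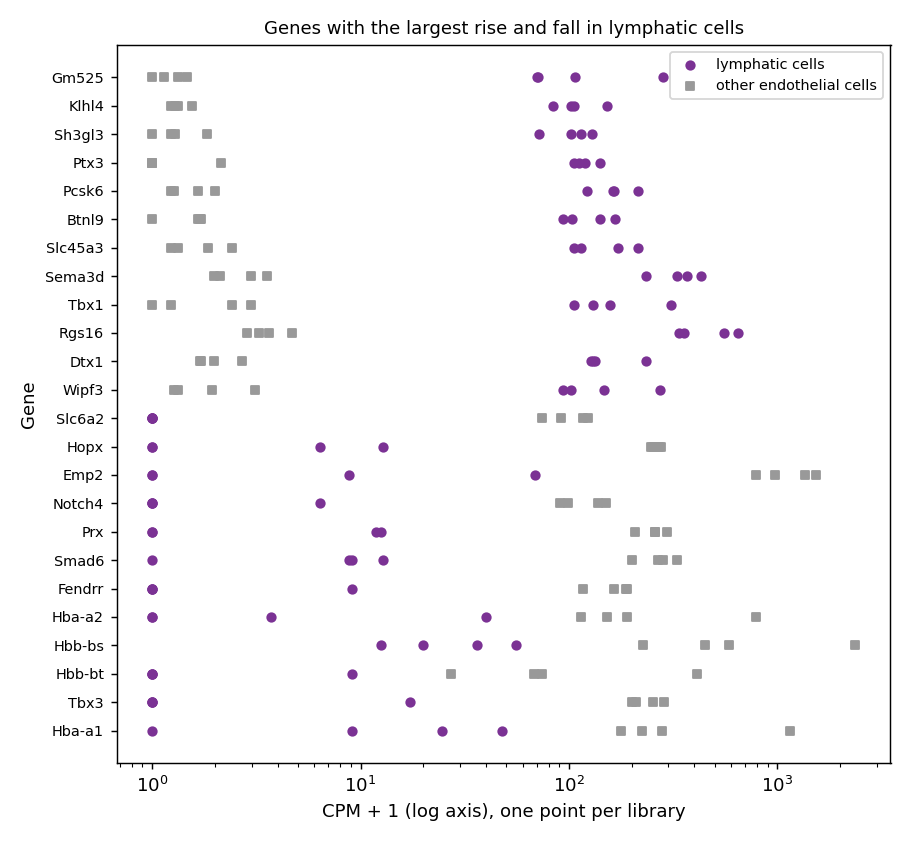
CPM + 1 on a log axis for the 12 genes that rose most and the 12 that fell most, 1 point per library, in lymphatic cells (circles) and other endothelial cells (squares). The circles and squares do not overlap, which follows largely from the choice of genes with large changes alike in each library.

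The 12 genes with the largest fall by the same rule included 4 hemoglobin genes, whose RNA is that of red cells, and 8 others. Slc6a2, the noradrenaline transporter that marks lung veins, had 0 UMIs in the lymphatic cells of the 4 libraries against 116, 123, 90.2 and 72.8 CPM, at least 22.9-fold lower with a floor of 3 counts over the group. Emp2, a membrane protein, lay at 67.6, 0, 0 and 7.79 CPM against 1532, 788, 970 and 1352 (−5.27 ± 0.26). Hopx, a homeodomain protein of the alveolar type 1 marker list, had 3 UMIs. It was 58.6-fold lower (95% exact counting interval 20.03 to 284). The receptor Notch4 had 2 UMIs (37.2-fold lower, 10.3 to 307), and the long noncoding RNA Fendrr 3 (34.7-fold lower, 11.9 to 169). Prx (periaxin, −5.09), Smad6 (a brake on BMP signalling, −5.03) and the T-box factor Tbx3 (−4.70) fell in the same range. The hemoglobin genes Hba-a2 (−4.95), Hbb-bs (−4.84), Hbb-bt (3 UMIs) and Hba-a1 (−4.60) completed the 12. Hbb-bs lay at 450, 226, 584 and 2363 CPM in other endothelial cells, and the 4 hemoglobin genes summed to 465, 323, 367 and 1207 CPM in the whole libraries, highest in WT replicate 2 in both. Their part in the result was not tested.

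Counts of the gene lists below stand beside 8.13% of all genes tested called higher and 13.5% called lower. Transcription factors of lymphatic development rose in 5 and fell in 1 of 8 tested, with a median log2 fold change of 2.63. Maf, a leucine zipper factor, lay at 773, 1168, 939 and 686 CPM in lymphatic cells against 12.6, 15.8, 18.7 and 8.40 CPM (5.99 ± 0.20). Nr2f2 (COUP-TFII), the vein factor that acts with Prox1, lay at 549, 625, 313 and 475 CPM against 36.2 to 61.0 (3.39 ± 0.19). Nfatc1 (1.86) and Foxc2 (3.66 ± 0.93, at 10.8 to 23.2 CPM), both of valve formation, rose as well. Gata2, another valve factor, fell by 2.77 on the log2 scale, from 226 to 312 CPM down to 23.6 to 58.0 CPM. Sox18, which starts Prox1 expression in the embryo, was not called (−0.39 ± 0.25, adjusted p = 0.306).

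Surface and wall genes of lymphatic vessels rose in 10 of 11, with a median of 4.68. Podoplanin (Pdpn), the mucin-like protein that keeps blood and lymph apart, lay at 365, 377, 255 and 436 CPM against 18.9, 3.94, 6.23 and 4.90 (5.33 ± 0.22). Thy1, through which leukocytes can adhere, lay at 397, 755, 452 and 569 CPM against 3.98 to 11.8 (6.29 ± 0.21). Fgl2, a fibrinogen-like protein, lay at 1714, 1533, 835 and 1800 CPM against 13.1 to 24.2 (6.24 ± 0.19). Nrp2, the co-receptor for VEGF-C, rose by 4.23 ± 0.19, Itga9, the valve integrin, by 3.63, the scavenger receptor Stab1 by 2.87, and ceruloplasmin (Cp) by 4.68. The claudin Cldn11, a gene of lymphatic valves, rose (6.78 ± 0.74) at low and uneven levels of 18.9, 106, 11.6 and 70.1 CPM. The stretch channel Piezo2 fell (−1.01 ± 0.27, adjusted p = 0.0015), and against venous cells alone it was at −0.24 and not called (edgeR adjusted p = 0.622).

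Of the 10 genes of that list that rose, Lyve1 rose least. It lay at 1433, 1675, 754 and 2368 CPM in lymphatic cells against 525, 705, 638 and 615 CPM (1.25 ± 0.16). Sets of blood endothelial cells held at least 2 markers of a type and more of that type than of any other. They numbered 196 venous, 83 arterial, 3376 general capillary and 813 aerocyte cells, aerocytes being the wide capillary cells of gas exchange. The venous cells used alone as a comparison in the fits were another set. These needed at least 2 venous markers, whatever other markers they held. Mean Lyve1 was 2092 CPM ± 824 (SD over 4 libraries) in arterial, 1558 ± 666 in lymphatic, 1151 ± 148 in venous, 744 ± 89.2 in general capillary and 208 ± 33.6 in aerocyte cells. The first 3 lay within their spread of each other. Podoplanin by contrast had means of 5.12 to 13.1 CPM in the 4 blood sets.

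**Figure D3:**
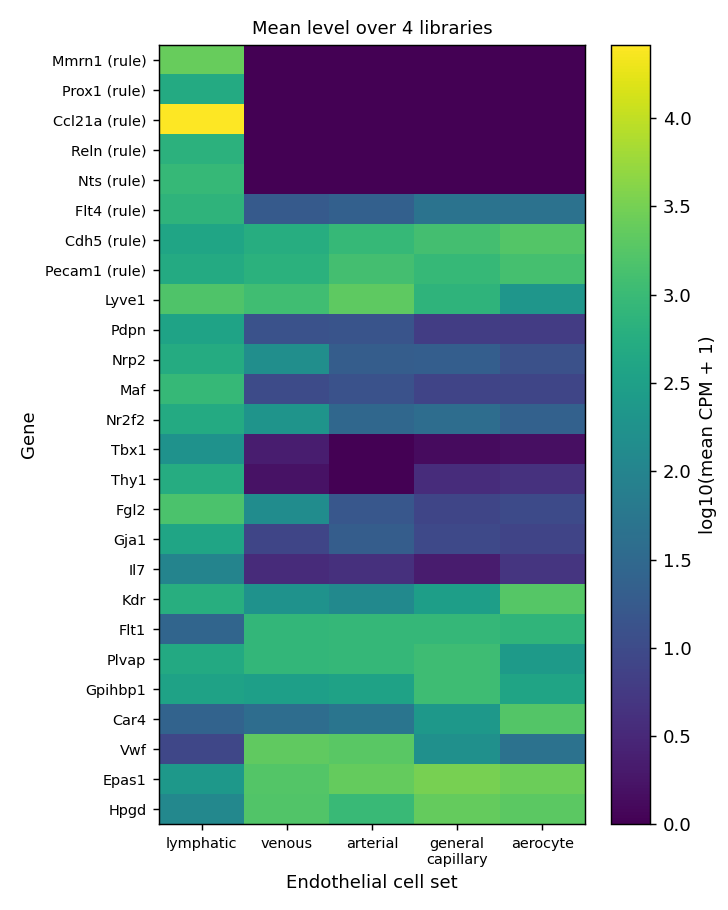
Mean CPM over the 4 libraries, as log10(mean CPM + 1), of 26 genes in lymphatic cells and 4 sets of blood endothelial cells. Genes marked "rule" chose the members or the gate. Pdpn, Maf, Thy1 and Gja1 are brightest in the lymphatic column, and Lyve1 is highest in arterial cells (2092 CPM). Vwf is dark in lymphatic cells. Epas1 (93.5 to 366 CPM per library) and Hpgd (0 to 222 CPM) are lower there than in other endothelial cells but not absent.

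Receptors and ligands of vascular growth were mostly lower, with 2 rising and 8 falling of 13 (median −1.96). The VEGF receptor Flt1 lay at 48.7, 35.4, 0 and 23.4 CPM against 606 to 918 CPM (−4.38 ± 0.26), and its partner Nrp1 fell by 4.33 on the log2 scale. Kdr (VEGFR2) was at 589, 684, 568 and 530 CPM against 423, 462, 615 and 565, which overlapped (0.20 ± 0.17, adjusted p = 0.455). Against venous cells alone it was called higher (1.21 ± 0.18, edgeR adjusted p = 7.6e-07). Tek (Tie2), the angiopoietin receptor, fell by 1.96 on the log2 scale, while its ligand Angpt2, which acts on lymphatic remodelling, rose by 3.20 ± 0.30 (111, 130, 81.2 and 70.1 CPM against 6.68 to 23.6). The adrenomedullin receptor genes Calcrl (−2.24) and Ramp2 (−1.67) fell, and the ligand Adm rose (2.18 ± 0.39, 39.0 to 70.8 CPM). Vegfc itself had 1 UMI in the members and was 22.5-fold lower (95% exact counting interval 4.02 to 891).

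Genes of leukocyte traffic split, with 5 rising and 6 falling of 18 (median −0.48). Il7, a survival cytokine for lymphocytes, lay at 89.2, 118, 58.0 and 125 CPM against 1.13 to 1.87 (5.86 ± 0.44). Clca3a1, known as a lymphatic adhesion antigen, lay at 224, 82.6, 278 and 164 CPM against 3.27 to 10.5 (4.72 ± 0.27), and the alarmin Il33 rose by 2.01 ± 0.48, and against venous cells alone was at 0.89 and not called (edgeR adjusted p = 0.237). The scavenging chemokine receptors Ackr2 (1.08 ± 0.25) and Ackr3 (0.81 ± 0.23) rose less, and Ackr3 at 105, 35.4, 92.8 and 249 CPM overlapped the 67.2 to 73.4 CPM of other endothelium. Against venous cells alone Ackr3 was lower, at −1.01. The chemokine Cxcl12 (−2.16), the sphingosine receptor S1pr1 (−1.30), the adhesion molecule Icam2 (−1.99) and the membrane chemokine Cx3cl1 fell, the last with 1 UMI in the members (26.0-fold lower, 95% exact counting interval 4.65 to 1029).

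Junction genes rose in 3 and fell in 5 of 12 (median −0.61). The connexin Gja1, of gap junctions and lymphatic valves, lay at 441, 318, 464 and 351 CPM against 6.77 to 22.3 (4.96 ± 0.21), and Mmrn2 (1.71) and F11r (0.74) rose. Esam (−3.74) and Tjp1 (−1.38) fell. The claudin of endothelial tight junctions, Cldn5, lay at 857, 1368, 893 and 826 CPM against 869 to 1300 (−0.19 ± 0.16, adjusted p = 0.453), and against venous cells alone at 0.56.

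Scavenger and lipid genes rose in 5 and fell in 6 of 12 (median −0.84). Up were the hyaluronan receptor Stab2 (5.66 ± 0.59), the cholesterol exporter Abca1 (3.53), the mannose receptor Mrc1 (2.78), Fabp4 (1.87) and the tetraspanin Cd9 (0.77). Down were the fatty acid carrier Cd36 (−3.35 ± 0.21, 31.2 to 153 CPM against 896 to 1142), the lipase Lpl (−2.99), its anchor Gpihbp1 (−1.22) and the phospholipid carrier Pltp (−4.44). Among matrix genes 6 rose and 5 fell of 14 (median 0.55). The laminin chain Lama4 lay at 292, 342, 336 and 296 CPM against 14.5 to 17.3 (4.26 ± 0.21), and the other laminin chains Lamb1 (2.16) and Lamc1 (1.66), perlecan (Hspg2, 2.07) and the protease inhibitor Timp3 (1.60) rose. Mgp (−3.16), which holds back calcification, and Sparcl1 (−3.33) fell.

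Blood endothelial genes fell in 14 of 16 (median −3.95), and 1 rose. The hypoxia factor Epas1 lay at 279, 366, 174 and 93.5 CPM against 2014 to 3757 (−3.55 ± 0.18), Hpgd, which breaks down prostaglandins, at 222, 153, 0 and 77.9 CPM against 1353 to 2376 (−4.05), and von Willebrand factor (Vwf) at 18.9, 11.8, 0 and 0 CPM against 212 to 333 (−4.46). Plvap, of the diaphragms of fenestrae, fell little (−0.82 ± 0.17). Emcn, a sialomucin of veins and capillaries, rose by 0.78 ± 0.21. Of the other marker lists, Prss23 of the venous list and Fbln5 of the arterial list were the members called higher in lymphatic cells. Called lower were 7 of 7 pericyte and smooth muscle, 5 of 5 alveolar type 2 and 3 of 3 alveolar type 1 markers tested. So were 5 of 6 alveolar fibroblast and 5 of 6 macrophage markers. Fewer fell of T cell (1 of 5), B cell (1 of 5) and neutrophil markers (2 of 4). Sftpc lay at 4258 CPM in the pooled other endothelial cells against 1157 in the pooled members, and Lyz2 at 989 against 251. The part of such RNA in the falls was not tested. The 5 mesothelial markers had 0 UMIs in the members.

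Galt was higher in lymphatic than in other endothelial cells on few molecules. Its gene body spans bases 41755228 to 41758695 of chromosome 4 (GRCm38, plus strand). Lymphatic cells held 16, 1, 4 and 2 Galt UMIs, or 43.3, 11.8, 46.4 and 15.6 CPM, against 10.5, 13.2, 6.88 and 7.004 CPM in other endothelial cells. The level was above that of other endothelium in 3 of 4 libraries, and below it in GAL replicate 2. The log2 fold change was 1.77 ± 0.46 (adjusted p = 0.00112 by edgeR), and without GAL replicate 1 it was 1.36 and not called (adjusted p = 0.287). Of the 9 Leloir and galactose genes tested, Pgm2, a phosphoglucomutase, also rose (1.37 ± 0.33, and 0.95 without GAL replicate 1, adjusted p = 0.294), and the galactosyltransferase B4galt1 fell (−1.38 ± 0.30).

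Stress, antigen presentation, mitochondrial, interferon and glucocorticoid lists are set beside all genes tested, of which 8.13% rose and 13.5% fell. Immediate early genes, the quick transcriptional response to a stimulus, rose in 10 and fell in 2 of 18 (median 0.51), with Fos at 9153, 7065, 10462 and 12769 CPM against 1928 to 3943 (1.64 ± 0.14). Heat shock and chaperone genes rose in 5 of 11 (median 0.31). The MHC genes, of antigen presentation, fell in 11 of 11 (median −1.24), H2-Aa by 1.79 on the log2 scale. Mitochondrial DNA transcripts fell in 11 of 13 (median −0.72), mt-Co3 with −0.48 ± 0.15, and the members' median share of mitochondrial UMIs was 1.61%, 1.74%, 1.34% and 1.34% against 2.44%, 2.65%, 2.01% and 1.94%. Interferon-stimulated genes rose in 1 and fell in 3 of 9 (median 0.26). Of the glucocorticoid response genes 3 rose and 4 fell of 9 (median −0.37). Among them Lcn2, the iron-scavenging lipocalin, lay at 1547, 908, 963 and 974 CPM in lymphatic cells against 62.7, 30.4, 39.0 and 4.44 CPM (5.21 ± 0.19).

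**Figure D4:**
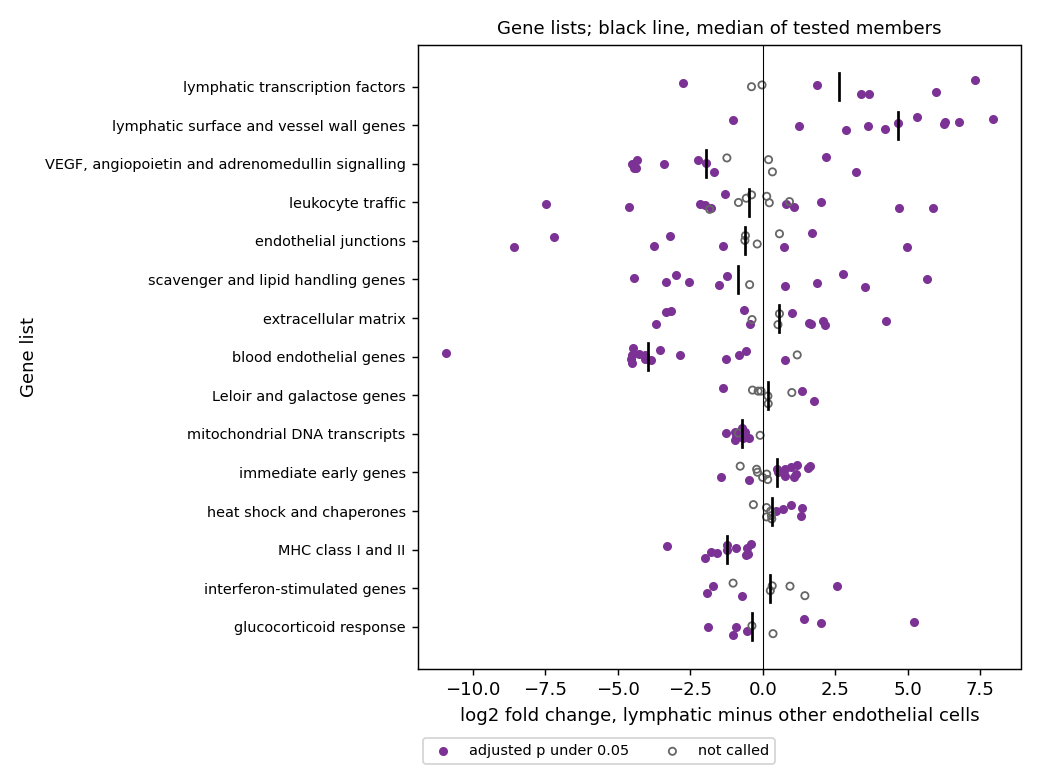
Log2 fold change of lymphatic minus other endothelial cells for the tested members of 15 gene lists, 1 point per gene, filled where the adjusted p was under 0.05, with the list's median as a black line. Surface and wall genes lie furthest right (median 4.68) and blood endothelial genes furthest left (median −3.95), and the points left of all others (Slc6a2, Sele, Gja5 and Ocln) are genes with 0 UMIs in lymphatic cells, whose plotted values depend on the fit.

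With every cell thinned to 1000 UMIs, 948 of 8147 genes were called, and the calls of Nfatc1, Adm, Ackr2, Ackr3, F11r, Fabp4, Cd9, Hspg2, Lamc1, Emcn, Galt, Pgm2 and Vegfc were lost. Hspg2 (2.13), Galt (1.70) and Pgm2 (1.47) then had log2 fold changes close to those of the full counts, while Adm (0.70), Fabp4 (0.90), Lamc1 (0.32), Cd9 (0.22), Emcn (0.19) and Ackr3 (0.13) had smaller ones. Both cell sets were chosen anew on the thinned counts. The median over all genes tested also moved, from −0.17 to −0.52, so smaller values are not particular to these genes. Calls lost without GAL replicate 1 were those of Piezo2, Galt and Pgm2. Calls lost without WT replicate 2 were those of Ackr3, Plvap and mt-Co3, and mt-Co3 lost its call without WT replicate 1 too. DESeq2 did not call Ackr3 (adjusted p = 0.356) or mt-Co3 (adjusted p = 0.052).

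GAL and WT lymphatic cells were then compared over the sums of each library, which held 369832, 84790, 86218 and 128356 UMIs. No gene was called by edgeR among 1910 tested (0%), with 94 at an unadjusted p under 0.05 and a smallest adjusted p of 0.337, and DESeq2 called 0, with 22 at an unadjusted p under 0.05. In 33.1% of genes the GAL libraries lay apart from the WT libraries, 15.3% with GAL higher and 17.9% with GAL lower. On simulated data of this size the test found 77.1% of 4-fold and 26.9% of 2-fold changes, so many smaller differences were not detectable at this depth. The simulation changed 67 genes 2-fold, 70 genes 4-fold and 63 genes 8-fold. With fewer changed genes the adjustment is stricter, and the shares found can be lower. Galt had too few UMIs in lymphatic cells to be tested between the groups.

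The 5 lymphatic rule genes and Flt4 stayed in this fit, but they chose the members, so their outcome in it is no test of them. Their levels are given as a description. Prox1 averaged 544 CPM ± 47.3 over the GAL libraries (SD, n = 2 per group) and 454 ± 79.9 over the WT libraries. Ccl21a averaged 28907 CPM ± 1018 and 23278 ± 4838, Mmrn1 2916 ± 747 and 2020 ± 146, and Reln 790 ± 250 and 570 ± 46.4. Flt4 averaged 693 CPM ± 70.3 and 805 ± 58.8. Nts averaged 509 CPM ± 336 and 1308 ± 751, with GAL replicate 1 (746 CPM) close to WT replicate 1 (777 CPM). Among genes outside the rule, lymphatic transcription factors were positive in 4 of 5 tested, with a median of 0.28, and surface genes in 7 of 9, with a median of 0.15, beside a median over all genes of −0.00299.

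The genes with the smallest p are named although none was called. Ly6a, a surface protein of blood endothelium, lay at 270 and 106 CPM in GAL against 23.2 and 46.7 CPM in WT (2.54 ± 0.55, adjusted p = 0.337). The phospholipase Plce1 lay at 262 and 318 CPM against 92.8 and 109 (1.51 ± 0.39), and the selenium carrier Selenop at 2258 and 3621 CPM against 1276 and 1519 (1.11 ± 0.30). Hpgd lay at 222 and 153 CPM against 0 and 77.9. On the lower side, Id3, an inhibitor of helix-loop-helix factors, lay at 208 and 189 CPM against 638 and 506 (−1.46 ± 0.33, adjusted p = 0.337). The MHC class II genes H2-Aa (64.9 and 82.6 CPM against 418 and 171) and H2-Ab1 (67.6 and 94.4 CPM against 429 and 132) came next, then Fosl2, of the AP-1 family (−1.15 ± 0.37), and Crip1, a LIM protein (−1.31 ± 0.43). Both GAL libraries lay on 1 side of both WT libraries in each of these genes. The choice by smallest p favours that, and 33.1% of all genes tested did so. Without WT replicate 2, edgeR called 11 genes, Ly6a, Hpgd, H2-Aa, H2-Ab1, Crip1, Apoe and Psmb8 among them, with WT replicate 1 alone as the WT group. Without GAL replicate 2 it called 9, among them Ly6a, Hpgd, H2-Aa and H2-Ab1, and without GAL replicate 1 it called Fosb (−2.23, adjusted p = 0.0161). In each of these fits 1 group is a single library, assumed to vary like the pair of the other group, so the calls describe these libraries and not the genotypes.

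**Figure D5:**
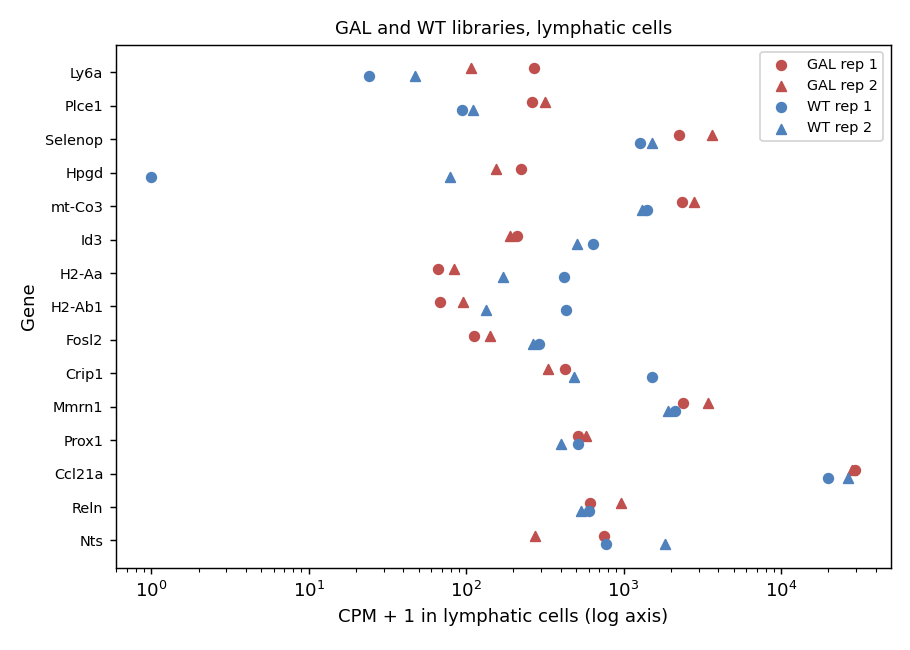
CPM + 1 in lymphatic cells on a log axis for the 10 genes with the smallest p between GAL (red) and WT (blue) and the 5 lymphatic rule genes, 1 point per library. Ly6a and H2-Aa, chosen by their small p, show the GAL libraries apart from the WT libraries. So did 33.1% of all genes tested, and 0 genes passed the test.

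Some lists leaned together, with 0 members called. Of all 1910 genes tested, 951 were positive and 959 negative. Members of a list share the same library sums, so their directions are not independent. Blood endothelial genes were positive in 6 of 7 tested (median 0.86), with Epas1 at 279 and 366 CPM against 174 and 93.5 and Plvap at 489 and 719 CPM against 476 and 210. Beside them, the 5 general capillary markers summed in lymphatic cells to 949 and 1286 CPM in GAL and 684 and 600 CPM in WT, and 0, 2, 3 and 2 of the 5 were at 0. This sum is no separate measure, since Plvap, Kit and Aplnr are in both lists and Plvap makes up much of it. The part of capillary RNA in the result was not tested. MHC genes were negative in 7 of 8 (median −0.92), with the immunoproteasome gene Psmb8 at 83.8 and 82.6 CPM against 325 and 117. Macrophage markers summed in the same cells to 360 and 259 CPM against 626 and 335 CPM, with 3, 2, 4 and 2 of 7 at 0 and Adgre1 at 0 in each library, and their part was not tested either.

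Mitochondrial DNA transcripts were positive in 11 of 11 (median 0.40), with mt-Co3 at 2336 and 2807 CPM against 1403 and 1317 and mt-Cytb at 1760 and 1498 CPM against 1090 and 1099. The median share of mitochondrial UMIs over all kept cells was higher in the GAL libraries too, at 2.30% and 2.25% against 1.82% and 1.78%. Immediate early genes were negative in 13 of 17 (median −0.37), with Fosb at 2158 and 696 CPM against 3445 and 3186 and Klf2, a factor of flow sensing, at 1071 and 543 CPM against 1369 and 1620. Interferon-stimulated genes were negative in 3 of 4 (median −0.78) and glucocorticoid response genes positive in 5 of 6 (median 0.29), with Sult1a1 at 276 and 295 CPM against 92.8 and 156. VEGF and angiopoietin genes were positive in 6 of 6 (median 0.25). Medians of the remaining lists lay from 0.03 (matrix, 9 tested) to 0.35 (scavenger and lipid, 7 tested) where positive, and at −0.13 for leukocyte traffic (8 tested). Alveolar type 2 markers stood at 2563 CPM in the lymphatic cells of GAL replicate 1 against 0, 81.2 and 62.3 CPM, with 0, 5, 1 and 3 of the 5 at 0.

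Whether the difference between GAL and WT was itself another one in lymphatic than in other endothelial cells was tested as an interaction. Of 11011 genes, 0 were called by edgeR (0%), with 417 at an unadjusted p under 0.05 and a smallest adjusted p of 0.0729, and DESeq2 called 0, with 112 at an unadjusted p under 0.05. Mmrn1, Prox1, Ccl21a, Reln and Nts stayed in this fit, although the other endothelial cells were chosen to hold 0 UMIs of them. Their interaction could not be estimated, so their outcome is no test of them. Flt4, of the endothelial gate, stayed too, and its outcome is no test either. Ly6a was 2.68 ± 0.60 higher in log2 fold change in lymphatic cells and H2-Aa 1.88 lower (−1.88 ± 0.44), each with an adjusted p of 0.0729. In other endothelial cells Ly6a lay at 2941 and 2657 CPM in GAL and 3033 and 3182 CPM in WT. On simulated data of this size the interaction test found 37.1% of 4-fold differences, with 62, 62 and 76 genes changed 2-fold, 4-fold and 8-fold. The simulation started each gene at the same level in both cell sets. The share found therefore does not describe genes whose level differs between the sets.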

How the data were processed

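Whole lungs had been minced, digested and taken into droplets with the SeekOne Digital Droplet kit, per the labels' protocols. GRCm38 (also as mm10), STAR, fastp and Seurat appear in the submitters' processing notes, with no version. Which annotation was counted is not stated there. The authors deposited raw UMI counts per gene and barcode, 32285 genes in 1 matrix per library, and the lowest barcode held 500 UMIs. Doublets were kept, since the rule names none, and removed by Scrublet score in an alternative.

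Counts were summed per library and cell set. CPM are of all UMIs of the sum, unscaled. Genes were tested with edgeR 4.0.16 (quasi-likelihood, filterByExpr, TMM) in R 4.3.3, adjusted by Benjamini-Hochberg over all genes tested. SE is the log2 fold change over the root of F. DESeq2 1.42.0 was an alternative. The scripts were tested on simulated data with 2-fold, 4-fold and 8-fold changes.

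The members and lists were chosen with earlier results of these data known. Named between cell sets were the 12 largest rises and 12 largest falls among called genes that differed alike in every library with a mean of at least 100 CPM in the higher set. Between GAL and WT, with fewer than 5 called, they were the 5 smallest p in each direction at that level. Galt, the rule genes and members of the lists were named as well. A gene of the surface and wall list is not reported here and was left out of that list's counts. Gene positions are from GENCODE.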

Additional observations from a re-analysis of the deposited data

How the results depend on the processing

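GAL replicate 1 held 61 of the 129 lymphatic cells. Leaving out each library in turn gave GAL minus WT differences of −0.0529 to 0.323 percentage points of kept cells and −0.498 to 1.06 of endothelial-gated cells, negative only without GAL replicate 1. Against other endothelial cells, 1562 genes were called with venous cells as the comparison and 948 with cells thinned to 1000 UMIs, both on fewer genes tested. Between GAL and WT, 8 genes were called with no filter on low counts and 1 to 11 on leaving out 1 library. Of the differences of the GAL effect, 7 were called with DESeq2 size factors, which moved the median over all genes from 0.15 to 0.04, 3 with scored doublets removed, and 0 to 14 on leaving out 1 library. The cause was not tested. Reversed were Ackr3 (−1.01), Cldn5 (0.56) and Sox18 (0.0887) against venous cells, and Kdr with thinned cells (−0.0598). Over all alternatives, 1641 of 1688 recomputed log2 fold changes of named genes kept their direction and their side of the threshold. No paired analysis was possible because the replicate numbers follow accession order. With no replicate block for the library, the calls of Ackr3, Plvap and mt-Co3 were lost (−0.39 for mt-Co3).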

Other observations

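Cells that held at least 3 of the 5 lymphatic genes but failed the rule numbered 51. Of these, 31 held Ptprc, 10 held Pdgfra and 7 had no UMI of Cdh5, Pecam1 or Flt4, and 17 were scored as doublets, against 11 of the 129 members. Platelet markers, which matter because platelets also hold Mmrn1, summed in the members to 29.7, 0, 0 and 62.3 CPM. Of the fibroblastic reticular markers, Cxcl13, Grem1, Tnfsf11 and Madcam1 had 0 UMIs in the members of the 4 libraries.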
